A study of Drosophila melanogaster with 2 samples.

Results

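Groucho (gro) is a corepressor of transcription in Drosophila melanogaster. It does not bind DNA itself but is brought to genes by DNA-binding repressors, among them Hairy, Runt-family and TCF proteins, and it works with histone deacetylases. Introns close to a transcription start site (TSS) often hold enhancers and silencers, the elements at which such repressors act. The sites described here are the intronic Groucho sites near a promoter. Each has a summit more than 1 kb and at most 5 kb from the nearest annotated TSS of any gene, inside a gene and outside every exon, in the dm6 gene models of Ensembl. The rule chose 639 of 4492 regions, 14.2% of the list.

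The regions came from ChIP-seq of whole embryos of mixed sex, 0 to 24 h old, from the transgenic strain gro-GFP, whose gro protein ends in a C-terminal GFP tag. Both replicates came from this single strain and were precipitated with an anti-GFP antibody. They are 1 group of 2 biological replicates, numbered 1 and 3 in the labels, with no other genotype, treatment or time. All tissues and all stages of embryogenesis were mixed, so a site used in few cells and a site used weakly in many cannot be told apart. The 4492 regions are the authors' list that passed their irreproducible discovery rate (IDR), and all were also in their list of 30000 regions from both replicates pooled. With 1 group there was no comparison between sample groups. Sites are not replicates and sites of 1 gene share their source, so shares are given with Wilson 95% intervals, which cover counting error only, and without a test.

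The site with the highest signal in the whole IDR list was one of them and lay in ush, which encodes U-shaped, a zinc-finger cofactor of GATA factors. Windows of 201 bp centred on a summit are given here for the pair of highest sites and for the 6 of the 25 highest sites whose window held the 6-letter word that was most over-represented among all the sites. Capitals mark that word, ACAGTG or CACTGT on the other strand, and also GAGAG, the core bound by GAGA factor, and GATAAG, the core bound by GATA factors, each on either strand. The sequences are RefSeq's dm6 plus strand. They lie at chr2L:480959-481159 (ush), chr2L:6612606-6612806 (CG11050), chrX:4324881-4325081 (norpA), chrX:13640414-13640614 (NFAT), chr3R:11649538-11649738 (Csk), chrX:2297606-2297806 (Raf), chr2L:3655729-3655929 (for) and chrX:17880377-17880577 (mnb).
ush: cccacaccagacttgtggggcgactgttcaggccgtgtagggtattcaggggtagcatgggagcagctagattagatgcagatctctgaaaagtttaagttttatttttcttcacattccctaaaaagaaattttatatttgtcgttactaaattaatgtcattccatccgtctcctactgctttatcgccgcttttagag
CG11050: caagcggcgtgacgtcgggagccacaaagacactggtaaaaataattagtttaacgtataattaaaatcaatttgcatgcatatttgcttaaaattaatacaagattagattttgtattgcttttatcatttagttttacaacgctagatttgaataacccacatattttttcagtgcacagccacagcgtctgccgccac
norpA: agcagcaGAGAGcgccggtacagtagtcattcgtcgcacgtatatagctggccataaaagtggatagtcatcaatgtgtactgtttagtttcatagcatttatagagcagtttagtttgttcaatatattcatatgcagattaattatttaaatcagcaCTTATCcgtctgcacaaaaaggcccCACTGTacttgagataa
NFAT: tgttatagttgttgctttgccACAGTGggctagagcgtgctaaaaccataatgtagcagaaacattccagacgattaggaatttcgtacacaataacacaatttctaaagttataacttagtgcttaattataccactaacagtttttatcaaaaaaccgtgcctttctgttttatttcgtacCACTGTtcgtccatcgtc
Csk: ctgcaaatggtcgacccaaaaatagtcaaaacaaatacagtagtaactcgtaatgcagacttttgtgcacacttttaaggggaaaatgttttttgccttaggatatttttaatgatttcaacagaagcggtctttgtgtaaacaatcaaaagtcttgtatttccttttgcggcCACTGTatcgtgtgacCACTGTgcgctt
Raf: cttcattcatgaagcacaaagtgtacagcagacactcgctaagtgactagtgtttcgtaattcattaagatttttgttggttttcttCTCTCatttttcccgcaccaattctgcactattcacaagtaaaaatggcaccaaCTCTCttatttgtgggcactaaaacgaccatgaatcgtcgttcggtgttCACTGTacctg
for: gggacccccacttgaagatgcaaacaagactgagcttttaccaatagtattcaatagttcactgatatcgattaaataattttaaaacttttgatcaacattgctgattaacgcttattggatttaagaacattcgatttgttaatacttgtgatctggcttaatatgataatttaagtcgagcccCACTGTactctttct
mnb: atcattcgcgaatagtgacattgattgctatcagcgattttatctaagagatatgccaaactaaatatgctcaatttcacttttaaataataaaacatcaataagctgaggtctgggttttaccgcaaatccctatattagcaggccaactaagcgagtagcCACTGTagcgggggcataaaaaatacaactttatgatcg
The ush and CG11050 windows held none of the 3 words. The norpA window held all 3. In norpA, Raf and for the word stood near the right edge of the window, and NFAT and Csk had 2 copies each.

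The sites covered nearly the whole range of signal in the list. The signal is the value the authors' peak caller gave, with no scale stated, so it ranks sites within 1 list. The pooled signal of the 639 sites ran from 80.7 to 1892 with a median of 115, and their middle 50% lay between 94.0 and 145. All other IDR regions had a median of 116, promoter sites (summit within 500 bp of a TSS) 118, and intronic sites more than 5 kb from a TSS 107. Of the 100 highest regions of the IDR list 13 were near-promoter intronic sites, close to their 14.2% share of the list. Among the 449 highest there were 50 of the 639 sites (7.82%), against 399 of 3853 other IDR regions (10.4%).

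The ush site was at 741 in replicate 1 and 1154 in replicate 3, with a pooled signal of 1892. It lay in the first intron of ush, 1371 bp upstream of the TSS of cbt, a gene on the other strand inside ush that encodes the zinc-finger protein Cabut. CG11050 followed with 722 in replicate 1 and 875 in replicate 3, pooled 1599. Its summit lay in an intron of 140 bp, 1019 bp downstream of a TSS of its own, so the region at chr2L:6612388-6612927 also covered exons. CG32772, at chrX:4910184-4910580, had 363 in replicate 1 and 533 in replicate 3, pooled 901. Both replicates placed these 3 sites above all the other near-promoter intronic sites among the 25 highest.

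Several of the next sites lay in genes of protein kinases. Tlk, which encodes Tousled-like kinase, had 223 in replicate 1 and 429 in replicate 3, with the summit 2320 bp from a TSS of its own at chrX:3742025-3742394. Csk, a kinase that inhibits Src kinases, had 192 in replicate 1 and 311 in replicate 3. Raf, the kinase between Ras and MEK, had 176 in replicate 1 and 321 in replicate 3. The site in for, a cGMP-dependent kinase gene known for larval foraging, had 151 in replicate 1 and 273 in replicate 3. That in mnb (minibrain, a DYRK kinase) had 164 in replicate 1 and 256 in replicate 3. In each of these 5 genes replicate 3 had the higher value, as it had at 24 of the 25 highest sites. The shares of kinase genes and of transcription regulators among all host genes were not counted.

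Others lay in genes of regulators of transcription. Trl encodes GAGA factor itself, and its site at chr3L:14759320-14759720 had 171 in replicate 1 and 362 in replicate 3. NFAT had 204 in replicate 1 and 330 in replicate 3. CHES-1-like, a forkhead factor, had 107 in replicate 1 and 198 in replicate 3, and Hr4, a nuclear receptor of the ecdysone response, had 120 in replicate 1 and 179 in replicate 3. Pits, named for its interaction with Tramtrack and Sin3A, had 156 in replicate 1 and 241 in replicate 3. The site of tna (tonalli) had 147 in replicate 1 and 135 in replicate 3, and it was the only one of the 25 that was higher in replicate 1.

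The remaining sites among the 25 lay in genes of varied function. They were CG9837 (pooled signal 703), CG3726 (571), norpA (567, the phospholipase C of phototransduction), Roc2 (467), tsr (396, cofilin), CG34417 (370) and SCaMC (335). After these came egh (327), Shrm (308, the actin regulator Shroom), tmod (287, tropomodulin) and ERp60 (282). In 21 of the 25 the nearest TSS was that of the host gene, as in 78.6% of all 639 sites. In 15 the summit was in the first intron of the transcript with the most exons, as in 50.4% of all 639. Of the 25, 12 lay on X, against 19.1% of all 639.

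**Figure D1:**
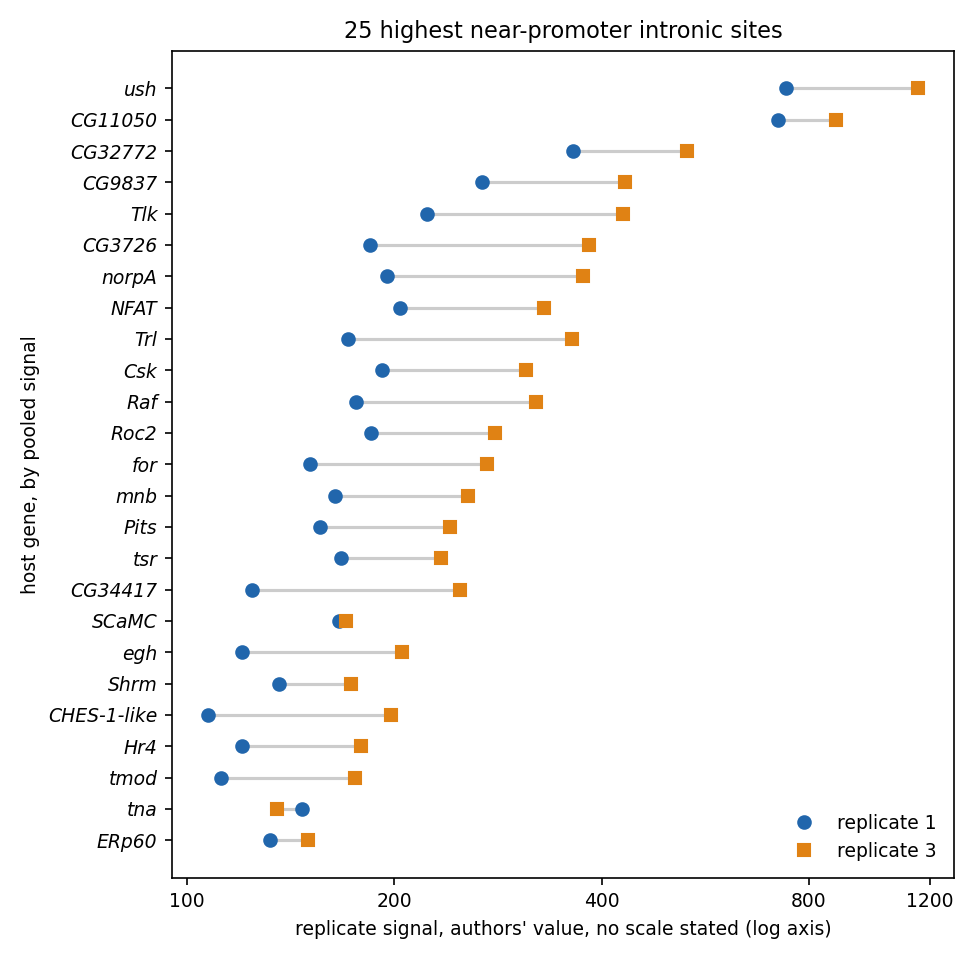
Signal of the 25 highest near-promoter intronic sites in replicate 1 (circles) and replicate 3 (squares), on a log axis, with 1 row per site named by its host gene and ordered by pooled signal. The squares lie right of the circles in 24 rows, the exception being tna, and ush and CG11050 stand highest in both replicates.

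Replicate 3 had the higher numbers at most of the sites, as it had over the whole IDR list. Both replicates' values come from separate lists with no stated scale, so an offset between the lists and a difference in recovery cannot be told apart. The median ratio of replicate 3 to replicate 1 was 1.25 at the sites and 1.17 over all IDR regions. Matched regions were found in both replicates for all but 1 of the sites. Replicate 1 ran from 12.5 to 741 with a median of 53.7, and replicate 3 from 12.6 to 1154 with a median of 62.5. Replicate 3 was higher at 439 of 638 sites, 68.8% (65.1 to 72.3), against 63.9% over all IDR regions. In 4 equal groups by pooled signal, from the highest, that share was 84.4%, 72.5%, 60.6% and 57.6%, and over all IDR regions it was 81.1%, 61.7%, 57.0% and 55.8%. Among the 4492 highest regions of each replicate, 423 sites (66.2%, 62.4 to 69.8) were found in both, close to the 69.0% of all IDR regions. Intronic sites more than 5 kb from a TSS stood at 57.4% and promoter sites at 72.1%. This share fell steeply with signal. In the 4 groups by pooled signal, from the highest, it was 100%, 89.4%, 55.6% and 19.5% at the sites. Over all IDR regions it was 99.5%, 93.4%, 61.4% and 21.7%. Across the 638 sites the signals of both replicates had a Spearman correlation of 0.380, and across all other IDR regions one of 0.477. Neighbouring sites could share a matched region, as 8 sites did in replicate 1 and 4 in replicate 3.

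Sites on X had the higher signals. The 122 sites on X had a median pooled signal of 125, and the 517 on the other arms 112. Their median was 52.3 in replicate 1 and 74.6 in replicate 3 on X, against 53.8 in replicate 1 and 60.5 in replicate 3 on the other arms. In replicate 1 both medians were close, and in replicate 3 that of X was the higher. Replicate 3 was higher at 83.6% of the sites on X and at 65.3% of those on the other arms, and the same shares over all other IDR regions were 71.2% and 61.5%. Of the sites on X 13.9% (8.89 to 21.2) were among the 449 highest IDR regions by pooled signal, and of those on the other arms 6.38% (4.58 to 8.83). Promoter sites had 10.7% among these on X and 10.7% on the other arms. The part of sequencing, chromatin or embryo sex in this was not tested.

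Density was similar on the 5 large arms. Per Mb of the sequence that the rule allows, 28.8 sites lay on 2L, 35.9 on 2R, 32.3 on 3L, 33.0 on 3R and 30.5 on X. The small arm 4 had 1 site in 0.260 Mb of such sequence, 3.84 per Mb.

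Per length of sequence the sites were about as frequent as IDR summits averaged over all the arms. That average includes the promoter sites, 62.6% of the list. The rule allows 20.1 Mb of intron, 15.04% of the 134 Mb of the arms used. That sequence held 31.7 sites per Mb, 0.946 times the 33.6 IDR summits per Mb of the arms. Within it the density fell with distance from the TSS. There were 42.9 sites per Mb between 1 and 2 kb (301 sites), 31.7 between 2 and 3 kb (169), 24.8 between 3 and 4 kb (106) and 18.0 between 4 and 5 kb (63). Introns between 500 bp and 1 kb from a TSS held 63.7 summits per Mb, those between 5 and 10 kb 16.5 and those beyond 10 kb 6.57. The limits of the rule thus cut a continuous slope. The median signal showed no such slope, with 112, 117, 113 and 117 in the 4 steps of 1 kb.

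The pooled list thinned out with distance less steeply, at 386, 318, 282 and 254 regions per Mb in the 4 steps of 1 kb. It held 6500 regions in the same sequence, and 9.83% of them (9.13 to 10.6) were in the IDR list, against 14.97% of all pooled regions. That share was 11.1% (9.98 to 12.4) at 1 to 2 kb and 7.09% (5.58 to 8.97) at 4 to 5 kb. A pooled region in these introns therefore passed the IDR less often than a pooled region in general, and regions farther from the TSS had the lower share.

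**Figure D2:**
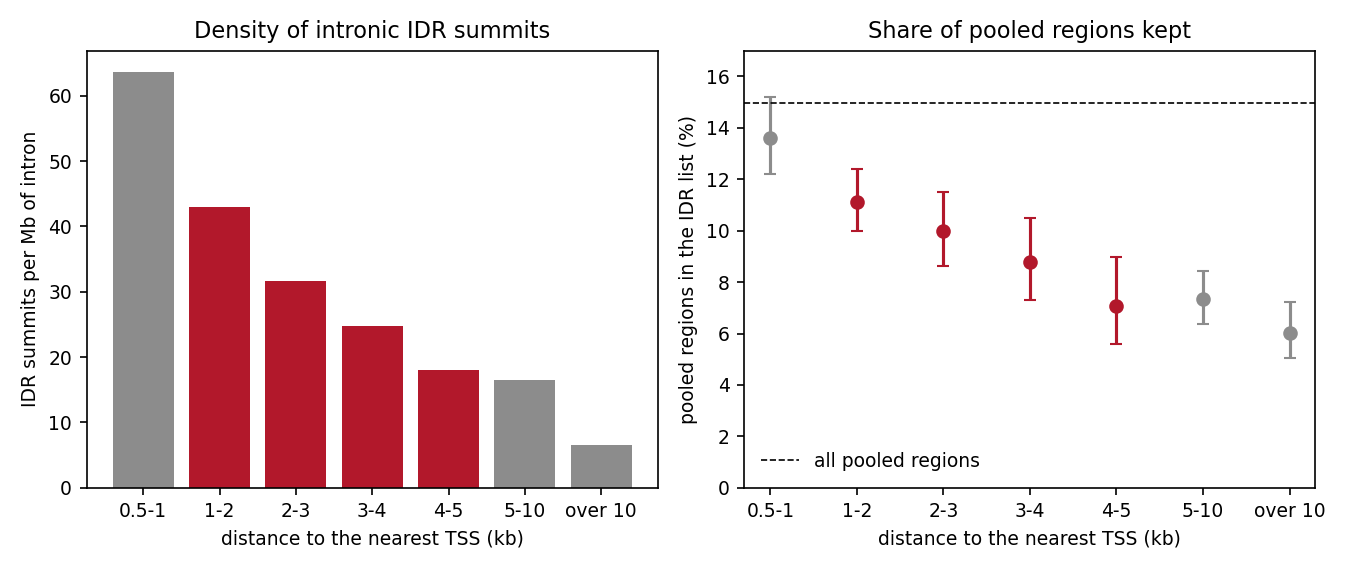
Left, IDR summits per Mb of intron by distance to the nearest TSS in kb, with the 4 steps of the rule in red and neighbouring distances in grey. Right, share of pooled regions in the IDR list in percent with Wilson 95% intervals and the 14.97% of all pooled regions as a dashed line. Density falls at each step, and the shares in red all lie under the dashed line.

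The values at both limits were alike on either side. The sites just over 1 kb lay in osa (1002 bp, pooled signal 111), lola (1005 bp, 102) and Ctl2 (1005 bp, 103), and the summits just within 1 kb in tai (1000 bp, 145), Pdp1 (998 bp, 103) and Acsl (997 bp, 102). The sites just within 5 kb lay in CG46429 (4990 bp, 152), Nuak (4981 bp, 94.2) and NK7.1 (4959 bp, 91.2), and those just beyond in Lrch (5030 bp, 166), CrebA (5032 bp, 105) and Eip75B (5032 bp, 95.1).

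Most sites lay nearest to a TSS of the gene that held them. For 502 of the 639 (78.6%, 75.2 to 81.6) the nearest TSS was one of the host gene's own, and among allowed bases taken at every 500th position that share was 63.3%. Sites downstream of such a TSS made up 58.2%, against 49.9% of allowed bases. Sites upstream of an own TSS, that is in the gene but before one of its alternative starts, made up 20.3%, against 13.4% of allowed bases. The other 21.4% were nearest to a TSS of another gene, against 36.7% of allowed bases. Pooled regions of the same class outside the IDR list were nearest to an own TSS in 75.5%. Between 1 and 2 kb from a TSS lay 47.1% of the sites and 7.02 of the 20.1 Mb of allowed sequence. Neither these shares nor those by intron below were matched for distance, and the part of distance in them was not tested.

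The sites were found mostly in early introns. In the transcript of the host gene with the most exons, 322 sites (50.4%, 46.5 to 54.3) lay in the first intron, 32.6% in the second and 17.1% in the third or a later one. Of allowed bases 36.5% were in the first intron, 28.1% in the second and 35.4% in the third or a later one. Pooled regions of the class outside the IDR list lay between, with 44.2% in the first intron. In 488 sites (76.4%) the summit was in the first intron of at least 1 transcript, against 54.1% of allowed bases. The introns were 140 to 126467 bp long with a median of 8028 bp, against 8990 bp for allowed bases, so the sites were not in longer introns than the sequence offers.

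The 639 sites lay in 455 genes, of which 446 were protein-coding genes with sequence that the rule allows. Such eligible genes numbered 6851, and 6.51% of them had a site. The share rose with the amount of allowed sequence. It was 0.259% (0.141 to 0.476) of genes with up to 1 kb, 6.94% (5.51 to 8.70) with 1 to 3 kb, 13.1% (11.2 to 15.3) with 3 to 6 kb and 23.6% (21.1 to 26.4) with more than 6 kb. In 333 genes there was 1 site, and 122 genes held several, 306 sites in all. Some neighbouring sites were close, with 50 neighbouring pairs within 1 kb and 45 of the 639 sites with an interval that overlapped that of another. The same counts were not made for other regions.

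The gene with the most sites was shn (FBgn0003396), which encodes Schnurri, the zinc-finger partner of Mad in Dpp signalling. Its 10 sites had pooled signals of 82.1 to 197 and lay 1017 to 3554 bp from a TSS. The highest of them had 117 in replicate 1 and 76.0 in replicate 3, and the lowest 77.6 in replicate 1 and 12.6 in replicate 3. The gene ush (FBgn0003963) held 6 sites, and below the one at 1892 they ran from 92.0 to 143. CHES-1-like (FBgn0029504) also held 6, from 84.3 to 303.

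Genes with 5 sites were Tlk, Pdp1, atos and siz. Those of Tlk ran from 108 to 657. Those of Pdp1, a PAR-domain leucine-zipper factor, ran from 92.6 to 231, those of atos (atossa) from 97.5 to 161 and those of siz (schizo, an Arf exchange factor) from 85.9 to 129. Genes with 4 sites were tna (up to 282), msn (up to 189, the Misshapen kinase of the JNK pathway), ths (up to 179, an FGF ligand), Kdm2 (up to 145, a histone demethylase) and sbb (up to 124, the zinc-finger protein Scribbler). Apart from ush, Tlk, CHES-1-like and tna, these genes had several sites each and none among the 25 highest. Their median signals ran from 93.3 in ths to 122 in Pdp1, against 115 over all 639 sites.

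Genes with a near-promoter intronic site often had a promoter site as well. Of the 446 eligible host genes 295 (66.1%, 61.6 to 70.4) had an IDR summit within 500 bp of one of their TSSs, against 1715 of 6405 eligible genes without an intronic site (26.8%, 25.7 to 27.9) and 29.3% of all eligible genes. The difference was there among genes with a like amount of allowed sequence. With more than 6 kb of allowed sequence the shares were 68.6% with an intronic site and 31.0% without, and with 3 to 6 kb 62.1% with and 23.7% without. Among genes with a single annotated TSS 60.4% (51.99 to 68.3) of those with an intronic site had a promoter site, and 21.5% (20.3 to 22.8) of those without. At the sites themselves 257 of 639 (40.2%, 36.5 to 44.1) had an IDR summit within 500 bp of the TSS they lay nearest to. That share was not computed for allowed bases or for other pooled regions, so it has no comparison. Among the hosts of the 25 highest sites, Tlk, CG3726, norpA, Roc2, tsr, CG34417 and Hr4 had no promoter site, nor had Pdp1 and ths among the genes with 4 or more sites.

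**Figure D3:**
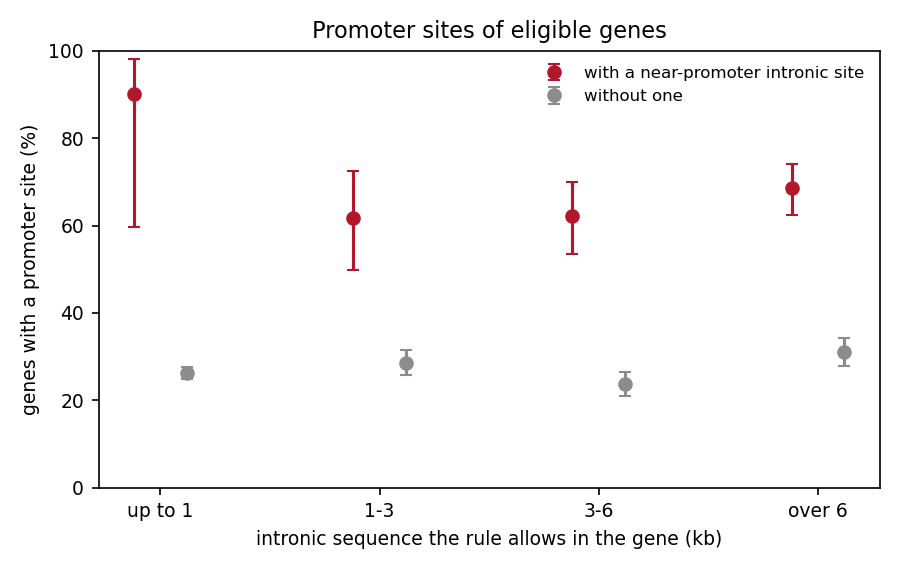
Share of eligible protein-coding genes with an IDR summit within 500 bp of a TSS, in percent with Wilson 95% intervals, for genes with a near-promoter intronic site (red) and genes without one (grey), by the intronic sequence in kb that the rule allows in the gene. The red points lie above the grey ones in all 4 bins, at 68.6% and 31.0% in the genes with the most allowed sequence.

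Genes of 20 lists of pathways and gene groups were looked up among the hosts. The lists were chosen with earlier results of these data known, and some were chosen for genes with many Groucho sites. Of their 371 eligible genes 90 (24.3%) held a site, against 6.51% of all eligible genes. Genes with more allowed sequence had a site more often. Per Mb of allowed sequence the listed genes held 51.6 sites against 30.3 over all eligible genes. No list was tested.

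The ecdysone response list, genes that act in or answer to the steroid hormone, had sites in 10 of 21 genes (47.6%, 28.3 to 67.6). They were EcR, the receptor (194), its coactivator tai (110), the nuclear receptors Hr4 (299, 3 sites), Hr3 (154) and Eip75B (146, 3 sites), and Eip63E (220, 2 sites), crol (151), Kr-h1 (121), ImpL2 (115, 2 sites) and vri (101). Values in parentheses here and in the lists that follow are the highest pooled signal in the gene. The eligible nuclear receptor genes Eip78C, Hr38, Hr39 and ftz-f1 held none. The list had 55.1 sites per Mb of allowed sequence.

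The EGFR and Ras list had sites in 10 of 28 genes (35.7%, 20.7 to 54.2). They covered the receptor Egfr (138), the ligand-processing gene S (Star, 131), the secreted inhibitor aos (argos, 118), the kinase Raf (495, 3 sites) and the phosphatase csw (81.4). They also covered RasGAP1 (81.8), Lk6 (95.8, 2 sites) and the nuclear effectors pnt (155, 2 sites), aop (101) and edl (186). Activators and inhibitors of the pathway were both among these genes, and the list had 78.7 sites per Mb. In the JNK list, 5 of 13 genes (38.5%, 17.7 to 64.5) held sites, namely msn (189, 4 sites), the kinases Mekk1 (217) and hep (117), Src64B (170) and the phosphatase puc (119, 3 sites), which is a target and inhibitor of the pathway, at 142 per Mb.

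In the pathways of secreted ligands the hosts included receptors, extracellular regulators, inhibitors and nuclear factors. In the Dpp and activin list, 6 of 18 genes held sites (33.3%, 16.3 to 56.3), which were the receptor wit (227), the glypicans dlp (218, 2 sites) and dally (84.2), shn (197, 10 sites), the inhibitory Smad Dad (162, 2 sites) and the extracellular inhibitor sog (115). In the Wingless list, 5 of 22 (22.7%, 10.1 to 43.4) did, the receptors fz2 (109, 2 sites) and fz (98.0), the secreted inhibitor Notum (121, 2 sites), dally and the kinase gish (94.8). The JAK-STAT list had 3 of 10 (30.0%, 10.8 to 60.3), which were Socs36E (133), an inhibitor and target, the phosphatase Ptp61F (102) and the factor Stat92E (101, 2 sites). The Notch list had 2 of 16 (12.5%, 3.50 to 36.0), mam (252), the coactivator Mastermind, and neur (158), a ubiquitin ligase for the ligands. Per Mb of allowed sequence the Dpp list had 134 sites, the Wingless list 41.5, the JAK-STAT list 49.6 and the Notch list 21.3, the last under the 30.3 of all eligible genes. In the Dpp list shn alone held 10 of the 17 sites, with 30.3 of the list's 127 kb of allowed sequence.

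Growth regulators held sites in 6 of 20 genes (30.0%, 14.5 to 51.9). They were REPTOR (270), a factor held in check by TOR, tara (238, 3 sites), the receptor InR (122), Mnt (112, 2 sites), S6k (85.2, 2 sites) and sima (81.2), at 75.2 sites per Mb. The list of Hippo and Fat genes had a site in 0 of 14, which allows a share of up to 21.5% by the Wilson interval. The cell cycle list had 3 of 17 (17.6%, 6.19 to 41.0), trbl (173, 2 sites), CycG (81.4) and fzr (80.9), at 78.9 per Mb.

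Chromatin regulators of the Polycomb and Trithorax groups held sites in 9 of 26 genes (34.6%, 19.4 to 53.8). They were Trl (531, 2 sites), trx (274, 3 sites), ph-p (144, 2 sites), psq (128, 3 sites), kis (123), osa (111), lola (102), ttk (99.7) and skd (90.3, 2 sites), at 173 sites per Mb. The list of GATA and zinc-finger regulators also included the forkhead factor CHES-1-like. In this list 6 of 17 genes (35.3%, 17.3 to 58.7) held 28 sites together, in ush, CHES-1-like (6 sites), shn, GATAd (178), sr (135) and sbb. This list was built around genes with many Groucho sites, and its count is not independent evidence. Of gro itself, its fellow corepressors and the repressors that recruit them, 1 of 17 eligible genes (5.88%, 1.05 to 27.0) held a site, Sin3A (122), the scaffold of a histone deacetylase complex, at 18.1 per Mb.

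Genes that pattern the embryo or specify cell types gave small counts. Gap and pair-rule genes had a site in 0 of 10 eligible genes, which allows up to 27.8% by the Wilson interval, and these genes have only 26.1 kb of allowed sequence. Hox genes and cofactors had 2 of 11 (18.2%, 5.14 to 47.7), Antp (94.0) and hth (82.2), at 17.98 sites per Mb. The neuroblast and neuronal fate list had 2 of 16 (12.5%, 3.50 to 36.0), fru (117, 2 sites) and pum (103), at 17.9 per Mb. The mesoderm and muscle list had 5 of 25 (20.0%, 8.86 to 39.1), zfh1 (207), Mef2 (206, 2 sites), kirre (138), rols (86.1) and mbc (84.4), at 23.1 per Mb. Per Mb these last 3 lists stood under the 30.3 of all eligible genes. These intervals overlap those of the signalling lists.

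Axon guidance and adhesion genes had 5 of 33 (15.2%, 6.65 to 30.9), with 11.8 sites per Mb of their allowed sequence, under the 30.3 of all eligible genes. They were Ptp10D (143), the ligand sli (136), Fas2 (114), Fas3 (98.4) and the Netrin receptor fra (87.3). RNA-binding and translation regulators had 5 of 24 (20.8%, 9.24 to 40.5), larp (128), eIF4EHP (119), Rbfox1 (117, 2 sites), pum (103) and mbl (99.8), and with 18.97 sites per Mb they too stood under that value.

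**Figure D4:**
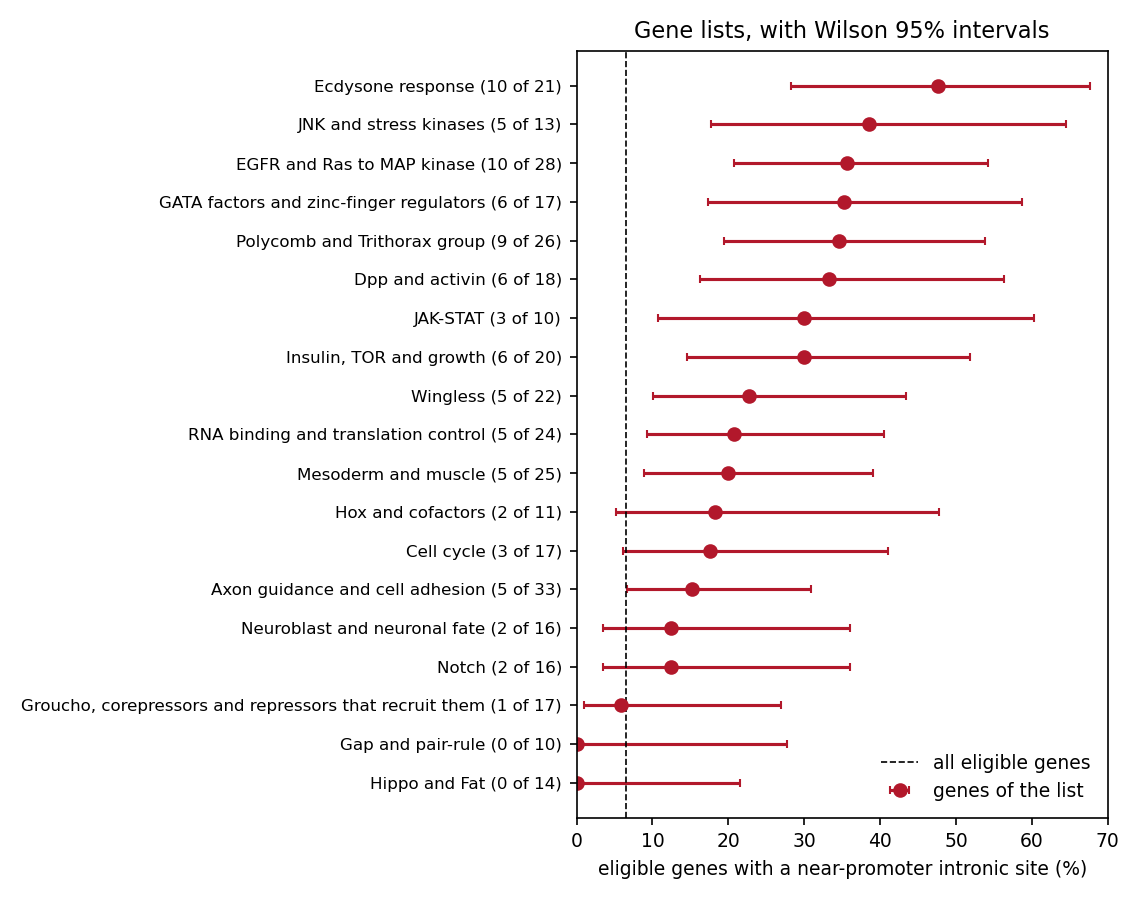
Share of the eligible genes of each list described that held a near-promoter intronic site, in percent with Wilson 95% intervals, with the 6.51% of all eligible genes as a dashed line. The ecdysone response list stands highest at 47.6%, and the Hippo and Fat list and the gap and pair-rule list are at 0.

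In sequence the sites differed from promoter sites. The core TATCGATA, bound by DREF, was in 1 of 639 windows (0.156%, 0.0276 to 0.881), against 9.77% (8.73 to 10.9) of promoter windows. The core promoter element GGTCACAC, known as Motif 1, was in 1 window, against 6.75% (5.88 to 7.74) of promoter windows. In allowed sequence these words stood at 0.412% and 0.313%, so the sites had the level of other intronic sequence. The shorter CGATA, a core of BEAF that overlaps TATCGATA, was in 27.1% (23.8 to 30.6) of the sites, 43.4% of promoter windows and 20.5% of windows of allowed sequence. The E-box CAGCTG was in 8.14% (6.26 to 10.5) of the sites, 14.9% of promoter windows and 7.48% of allowed sequence.

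Some cores were more frequent in the site windows than in the windows 1000 bp to either side. GATAAG was in 16.9% (14.2 to 20.0) of the sites, 12.1% (10.5 to 14.0) of those flanks and 8.995% (8.72 to 9.28) of allowed sequence. Pooled regions of the class outside the IDR list held it in 15.05%, so regions of lower signal had it nearly as often. The forkhead core TAAACA was in 29.7% (26.3 to 33.4) of the sites, 20.7% (18.6 to 23.04) of flanks and 20.3% of allowed sequence. GAGAG was in 29.9% (26.5 to 33.6) of the sites, 23.9% (21.7 to 26.4) of flanks and 20.8% of allowed sequence, and the longer GAGAGAG, which contains it, was in 6.42%, 4.69% and 2.76% of these windows in that order. GAGAG was not centred on the summit. It had 9.23 matches per 100 sites in the 50 bp left of it, 14.9 in the 50 bp right of it, and 23.9 from 250 to 200 bp to the left, and in windows of 50 bp to each side its ratio to flanks was 1.08 in place of 1.25. Intronic sites more than 5 kb from a TSS had it in 35.8% of windows. The Grainyhead core AACCGG was rarer at the sites, at 2.97% (1.91 to 4.60), than in flanks at 5.56% (4.43 to 6.95), with intervals that overlap.

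The cores of factors known to recruit Groucho differed little from the flanks in most cases, and some were more frequent than in allowed sequence. Hairy's CACGCG was in 5.32% (3.83 to 7.34) of the sites, 4.93% of flanks and 3.28% of allowed sequence. The Runx core TGTGGTT was in 4.23% (2.92 to 6.08) of the sites, 3.83% of flanks, 3.05% of allowed sequence and 2.54% of pooled regions of the class outside the IDR list. Brinker's GGCGCC was in 3.29% (2.16 to 4.97) of the sites, 3.36% of flanks and 2.41% of allowed sequence. Capicua's TGAATGAA was in 1.72% of the sites, 1.96% of flanks and 1.94% of allowed sequence. TCF's CTTTGAT was in 3.29% (2.16 to 4.97) of the sites, 2.03% (1.39 to 2.96) of flanks and 3.996% of allowed sequence. Su(H)'s GTGGGAA was in 2.03% (1.19 to 3.45) of the sites, 2.43% of flanks and 2.77% of allowed sequence. A match to such a word is no proof of binding, and its absence from a window says nothing of the factor. The GC content of the windows was 39.0 ± 6.79% at the sites (SD, 639 windows), 41.1 ± 8.37% in flanks and 40.9 ± 7.20% at promoter sites. The part of base composition in the word counts was not tested.

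Every 6-letter word was also counted in the site windows. Each word was counted with its reverse complement, and 1482 words were in at least 5% of the site windows. Highest by the ratio to allowed sequence was ACAGTG, in 128 of 639 windows (20.0%), against 9.55% of flanks, 7.20% of allowed sequence, 14.9% of promoter windows and 9.47% of pooled regions of the class outside the IDR list. The ratio was 2.78 to allowed sequence and 2.10 to flanks. Intronic sites more than 5 kb from a TSS had it in 18.2%. The word was picked after its counts were seen, as the first of all words, so it is a description and has no test. No factor is assigned to it here.

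The word was most frequent in the highest of 4 groups by signal, and 6 of the 25 highest sites held it. In 4 equal groups by pooled signal, from the highest, it was in 30.0% (23.4 to 37.5), 18.8%, 15.6% and 15.7% (10.9 to 22.2) of windows, while GAGAG showed 31.9%, 26.9%, 31.9% and 28.9% in the same groups. First introns (22.0%) and later introns (18.0%) had it at similar shares, as did sites downstream (20.7%) and upstream (20.8%) of an own TSS. The 128 windows lay in 110 host genes. Words that overlap it were also high, among them CTGTAC (9.23% of the sites, 4.31% of allowed sequence) and ACTGTA (14.1% and 6.74%). Of 427 words of 8 letters in at least 3% of windows, the highest by the same ratio was CACTGTAC, in 23 windows (3.60%), against 0.487% of allowed sequence, 1.02% of flanks and 1.28% of promoter windows. The norpA, Raf and for windows shown above carry it. Intronic sites more than 5 kb from a TSS had these words at similar shares. They held CACTGTAC in 4.05% of windows, CTGTAC in 9.46% and ACTGTA in 12.5%.

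The matches lay on both sides of the summit. Per 100 sites there were 6.26 matches from 100 to 50 bp left of the summit, 6.89 in the 50 bp left of it, 3.60 in the 50 bp right of it and 6.57 from 50 to 100 bp right of it. Between 350 and 400 bp away there were 2.03 on the left and 1.56 on the right, the level of allowed sequence, where every bin held 1.83 to 2.19. Left and right are those of the plus strand.

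**Figure D5:**
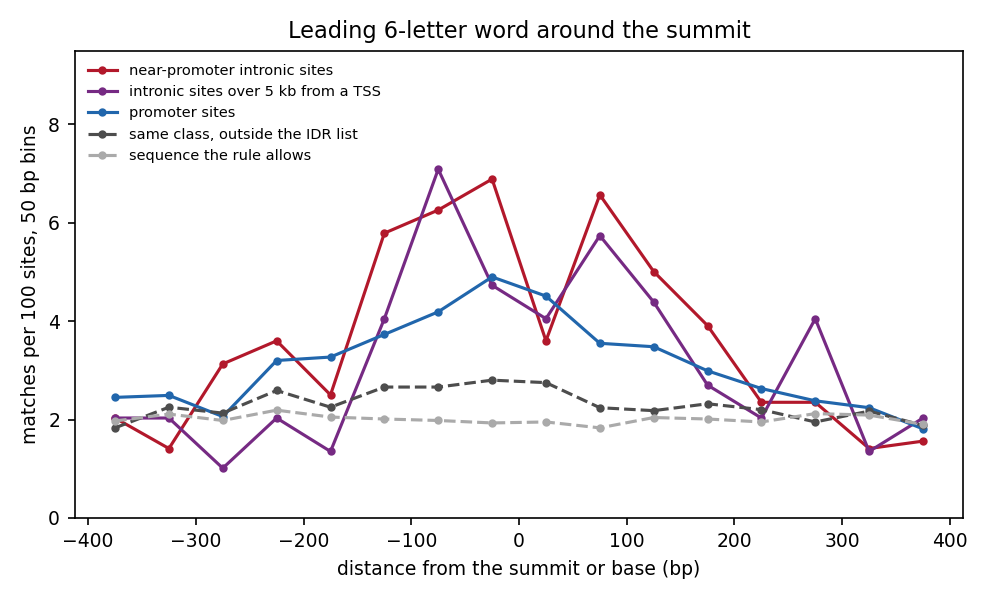
Matches of the leading 6-letter word per 100 sites in bins of 50 bp, by distance in bp from the summit (or from every 500th allowed base), for near-promoter intronic sites, intronic sites more than 5 kb from a TSS, promoter sites, pooled regions of the class outside the IDR list and allowed sequence. The near-promoter intronic sites reach 6.89 beside the summit, the more distant intronic sites 7.09 in the bin from 100 to 50 bp left of it, promoter sites 4.90, and allowed sequence stays near 2.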

How the data were processed

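ChIP-seq regions of GFP-tagged Groucho were analysed in both replicates of 1 group, grouped by the labels. Per the labels, chromatin was sonicated to 200 to 800 bp and precipitated with anti-GFP. Per the deposited manifest, the authors made a list of 30000 regions from each replicate with a control, 1 from both replicates pooled, and the IDR list, in dm6 and dm3. The dm3 lists and the control were not used here. For the aligner, peak caller, IDR threshold and versions: not given in the sources used here. Signal here means the value the authors deposited in the narrowPeak signal column, with no scale stated, and replicate and pooled signals are on separate scales. The −log10 q value the authors deposited reaches 1 maximum per list, so sites were ranked by signal. Read counts were not used here. Depth is therefore unknown and the precision of a single signal cannot be given.

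Summits were placed in Ensembl release 115 gene models (18164 genes, 13945 protein-coding, transposable elements left out) with Python 3.11.15, pandas 2.3.3, numpy 2.4.6 and scipy 1.17.1. Coordinates are 1-based dm6, and sequence came from RefSeq Release 6. The host is the gene that holds the summit, a protein-coding gene before others and then the gene with the nearest TSS of its own, and 33 sites had more than 1 protein-coding host. Replicate regions were matched by an overlap of at least 1 bp, taking the nearest summit. Windows reached 100 bp to each side of the summit. In them 30 motifs were searched on both strands, and every word of 6 and 8 letters was counted. Placement, matching and word counts were tested on planted positions and sequences. The sites, 20 gene lists and motifs were chosen with earlier results of these data known. The rule for named genes was the 25 sites of highest pooled signal, the genes with most sites, every listed gene with a site, and the sites nearest to both limits. 3 listed names matched no gene and were dropped, and the result of 1 list is not reported here. No test across sites was run, since sites are not replicates.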

Additional observations from a re-analysis of the deposited data

How the results depend on the processing

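The 639 sites came out the same, all 639, with RefSeq gene models. With protein-coding gene models 626 sites were found, 590 of them shared, and with an upper limit of 4 kb 576. A lower limit of 2 kb gave 338. In the upper 50% of the IDR list by signal there were 308 sites, their density was 0.912 times that of all summits in that part of the list, their median signal was 147, 3.59% of eligible genes and 54 listed genes had one, and 4.74% of pooled regions of the class were in it. The lower counts follow from the shorter list. Counting an IDR summit anywhere in the gene gave 174 listed genes in place of 90.

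When the 4492 highest regions of a single replicate took the place of the IDR list, leaving out each replicate in turn gave 658 to 668 sites, at 0.974 to 0.989 times the density of all their summits. These overlapped 502 (replicate 1) and 543 (replicate 3) of the sites. The median pooled signal was 110 to 112, an own TSS was nearest in 78.4% to 79.0% of sites, and 51.6% to 52.1% were in the first intron. Sites were held by 6.47% to 6.76% of eligible genes, and by 90 listed genes with either replicate. Of pooled regions of the class, 10.2% to 10.6% were matched.

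Against flanks, Zelda's CAGGTAG stood at 0.632 times and at 1.25 times in windows of 50 bp to each side, and TCF's CTTTGAT at 1.62 and 0.727 times, and the cause was not tested. Both are rare words. Of 150 motif ratios under other settings 130 stayed within 1.5 times their value, and 18 moved further, as did these 2. Crossing from one side of the flanks to the other was not limited to these 2. In the upper 50% of the IDR list the CRE core TGACGTCA stood at 0.286 in place of 1.20. The ETS core CCGGAAG stood there at 1.60 in place of 0.833. With an overlap of 50% of the region required, replicate 3 was higher at 68.9% of the sites, and 64.0% were among the highest of both replicates.

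No paired analysis was possible because the series has 1 group. The deposited lists give no reads, the depth is unknown, and the control was not analysed here, so a weak site cannot be told from background. With 2 replicates and no other group, all shares are descriptions.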
